A study of Homo sapiens with 14 samples.

Results

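The genes described here are 46 heat shock protein, chaperone and co-chaperone genes, taken by symbol from the gene tables of all 14 libraries, out of 25480 symbols listed by every table. They comprise 7 genes of the HSP70 and HSP110 families, 2 HSP90 genes, 2 small heat shock proteins, 9 J-domain (HSP40) proteins, 5 BAG genes, 7 HSP90 co-chaperones, the 8 subunits of the cytosolic chaperonin TRiC, 2 heat shock factors and 4 further chaperones. The working name of the set is cytosolic chaperones, but those 4, HSPA9, HSPD1, HSPE1 and DNAJA3, encode proteins known to work in mitochondria, and they are kept apart below.

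RNA was sequenced from C4-2B, a castration-resistant prostate cancer (PCa) line derived from LNCaP, and from HCC70, a triple-negative breast cancer (TNBC) line, both wild type by their labels and grown with fetal bovine serum. The study asked whether ursolic acid (UA), a plant triterpenoid, and digoxin, a cardiac glycoside that blocks the sodium pump, act on these cells through the nuclear receptor RORγ. C4-2B cells received 10 µM UA for 24 or 48 h, set against the vehicle of the UA series at that time, or 100 nM digoxin for 24 or 48 h, set against the vehicle of a separate digoxin series. HCC70 cells received 5 or 10 µM UA for 24 or 48 h, and 1 vehicle library of each time served both doses. Each of the 14 conditions is a single library of a single line, so there is no spread between replicates, no single comparison was tested (a limma fit that takes the 2 times as replicates is among the alternatives), and higher or lower below compares 1 treated library with 1 vehicle library.

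Chaperones bind proteins that are unfolded or still folding and pass them through rounds of ATP hydrolysis. HSP70 proteins are loaded with clients by J-domain proteins and released by nucleotide exchange factors of the BAG and HSP110 families, HSP90 finishes clients such as steroid receptors and kinases with the help of co-chaperones, and TRiC folds actin and tubulin inside a closed ring. When unfolded proteins accumulate, the transcription factor HSF1 is freed from these chaperones and binds heat shock elements, repeats of GAA in alternating orientation, upstream of many of the same genes.

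The start regions of 8 members that the results below turn on are shown to make these repeats visible. Each is the 120 bases before a RefSeq transcription start on GRCh38.p14, written 5′ to 3′ on the gene's strand, with GAA and TTC in capitals where they stand in GAANNTTC or TTCNNGAA. For a gene with several listed starts, the start with the most matches is shown. The other starts listed for HSP90AA1, HSP90AB1 and DNAJB1 held no match.
HSPA8, chr11:123062137-123062256, minus strand: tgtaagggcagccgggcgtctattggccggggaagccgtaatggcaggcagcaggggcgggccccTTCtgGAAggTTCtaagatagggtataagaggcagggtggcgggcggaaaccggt
HSP90AA1, chr14:102087045-102087164, minus strand: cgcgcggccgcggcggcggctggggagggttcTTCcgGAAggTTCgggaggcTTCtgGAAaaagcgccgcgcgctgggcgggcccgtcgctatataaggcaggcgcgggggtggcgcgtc
HSP90AB1, chr6:44247823-44247942, plus strand: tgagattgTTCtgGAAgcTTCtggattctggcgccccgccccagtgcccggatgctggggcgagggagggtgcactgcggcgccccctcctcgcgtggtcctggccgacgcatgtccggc
CHORDC1, chr11:90223050-90223169, minus strand: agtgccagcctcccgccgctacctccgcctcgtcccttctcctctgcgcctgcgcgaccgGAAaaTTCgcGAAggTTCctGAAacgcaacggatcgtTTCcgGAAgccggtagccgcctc
DNAJB1, chr19:14518398-14518517, minus strand: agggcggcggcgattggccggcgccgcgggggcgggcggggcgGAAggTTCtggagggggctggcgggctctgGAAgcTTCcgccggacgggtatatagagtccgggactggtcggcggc
HSPA1A, chr6:31815423-31815542, plus strand: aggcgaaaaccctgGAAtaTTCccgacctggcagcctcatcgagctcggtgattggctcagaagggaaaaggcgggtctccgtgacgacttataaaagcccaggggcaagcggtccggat
HSPA1B, chr6:31827618-31827737, plus strand: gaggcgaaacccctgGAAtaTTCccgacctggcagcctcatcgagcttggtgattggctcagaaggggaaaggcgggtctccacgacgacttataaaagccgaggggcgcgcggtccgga
HSPB8, chr12:119178811-119178930, plus strand: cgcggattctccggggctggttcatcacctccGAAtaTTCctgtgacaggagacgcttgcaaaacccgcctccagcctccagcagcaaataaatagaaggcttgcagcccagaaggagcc
The match nearest to the start lay 50 bases before it in HSPA8, 68 in HSP90AA1, 23 in CHORDC1, 47 in DNAJB1, 88 in HSPB8 and 107 in HSP90AB1. HSPA1A and HSPA1B share their match, 106 and 105 bases before the start.

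RefSeq start regions were matched by symbol for 40 members, and the 250 bases before each start were searched. Both motifs read the same on either strand. At least 1 GAANNTTC or TTCNNGAA was present before a start of 18 of 40 members (45%), against 3813 of 27305 genes (14%). A run of 3 alternating units, GAANNTTCNNGAA or TTCNNGAANNTTC, which overlaps the shorter motif, was present in 6 of 40 members (15%), namely HSPA8, HSP90AA1, HSP90AB1, CHORDC1, DNAJB6 and HSPD1, against 152 of 27305 genes (0.557%). Counted per start instead of per gene, 18 of 58 member starts (31.0%) held the shorter motif, against 4067 of 35116 starts (11.6%). The run of 3 units was before 6 of 58 (10.3%), against 155 of 35116 (0.441%). A match describes letters and not binding, and HSPH1, whose windows hold no match, is not thereby without an element elsewhere.

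The tables hold FPKM, fragments scaled to gene length and to the mapped fragments of the library, so that levels of different genes can be set side by side. Between 11210 and 12163 genes per library exceeded 1 FPKM, and the 10 most abundant genes held 22.8 to 40.4% of the summed FPKM. The lines matched their labels: the prostate genes KLK3 and FOLH1 ranged over 989 to 1971 and 178 to 489.9 FPKM in C4-2B, while in HCC70 both were below 1 FPKM, as were the hormone receptor genes ESR1 and PGR. The basal keratin KRT5 was at 965 FPKM with 10 µM UA and 1485 FPKM in vehicle in HCC70 at 24 h, and at 296 FPKM with 10 µM UA and 761 FPKM in vehicle at 48 h.

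The 46 genes are abundant. Together they held 0.569 to 1.47% of all FPKM, and 2 of them, HSPB1, a small heat shock protein that holds unfolded clients without ATP, and HSPA8, the constitutive HSP70, made up 33.3 to 52.7% of that sum. At the other end HSPB8, a small heat shock protein that works with BAG3 in selective autophagy, was between 0.54 and 4.06 FPKM in every library. In the vehicles the HSP90 genes were at 463 to 1119 FPKM for HSP90AA1, the stress-responsive form, and 335 to 996 FPKM for HSP90AB1, the constitutive form.

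**Figure D1:**
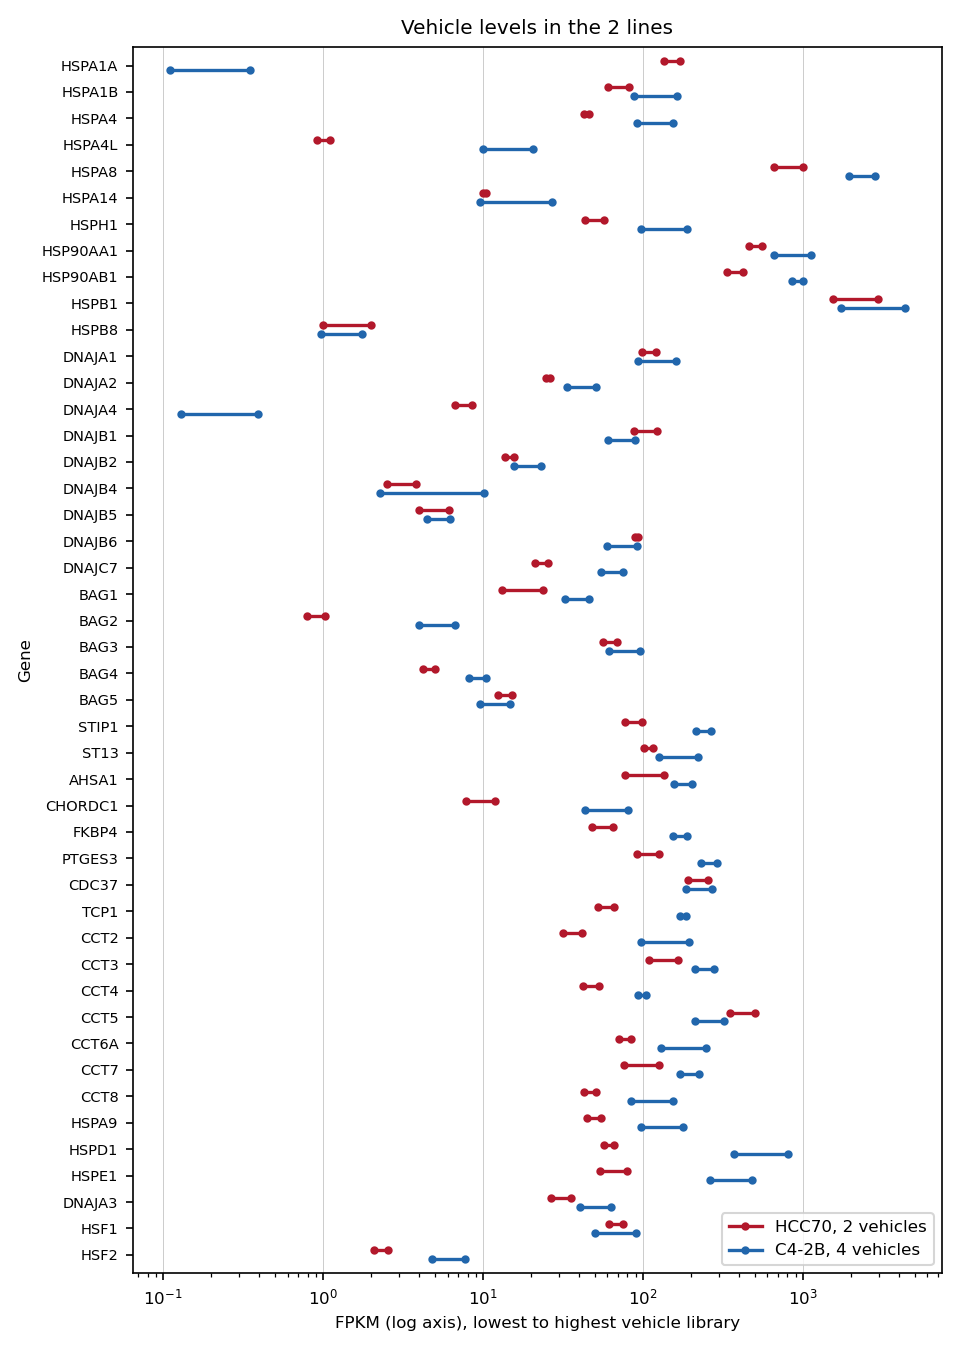
Vehicle levels of the 46 genes in FPKM on a log axis, with the lowest and highest library joined for HCC70 (2 libraries, red) and C4-2B (4 libraries, blue). HSPA1A and DNAJA4 lie apart with HCC70 higher, and most other genes that do not overlap lie with C4-2B higher.

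In the vehicles, 3 of 46 members were higher in both HCC70 libraries than in all 4 C4-2B libraries (26.6% of 13417 genes were), 30 were lower in both (48.6% of genes were), and 13 overlapped, which the plot of vehicle levels shows gene by gene. The 3 that were higher in HCC70 were HSPA1A, DNAJA4, a J-domain partner of HSP70, and the TRiC subunit CCT5. DNAJA4 was at 6.71 and 8.50 FPKM in HCC70, against 0.13 to 0.39 FPKM in C4-2B. CCT5 stood out from the other TRiC subunits, with 348 and 499 FPKM in HCC70 and 213 to 323 FPKM in C4-2B, while the other 7 subunits were all lower in HCC70.

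Among the 30 that were lower in HCC70, the widest gap was that of HSPA4L, an HSP110-type exchange factor, with 0.92 and 1.10 FPKM in HCC70 and 9.96 to 20.5 FPKM in C4-2B. The mitochondrial chaperonin HSPD1 was at 57.3 and 66.3 FPKM in HCC70, against 369 to 810.3 FPKM in C4-2B. Its partner HSPE1 was at 54.0 and 79.4 FPKM in HCC70, against 263 to 481 FPKM in C4-2B. These genes overlap on opposite strands of chromosome 2, and since the strand of the reads was not stated to be used, their reads may be shared. The co-chaperones CHORDC1, FKBP4, STIP1 and PTGES3 and the HSP70 gene HSPA8 were likewise lower in HCC70, as were HSP90AB1 and HSPH1. HSF1, HSPB1, DNAJB1 and BAG3 overlapped between the lines.

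HSPA1A and HSPA1B, the neighbouring stress-inducible HSP70 genes on chromosome 6, were split differently in the lines. Their longest open reading frames are identical at 1922 of 1926 bases (99.8%), whereas the sequence after the stop codon is 69.0% identical, so reads of the shared part could have been given to either gene. In C4-2B the level was assigned almost wholly to HSPA1B, which was between 77.2 and 191 FPKM in the 8 libraries, and HSPA1A was between 0.11 and 0.55 FPKM, or 0.0793 to 0.407% of the sum of the 2 genes. In HCC70 HSPA1A held 64.3 to 69.1% of the sum. The split therefore did not overlap between lines in any library.

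**Figure D2:**
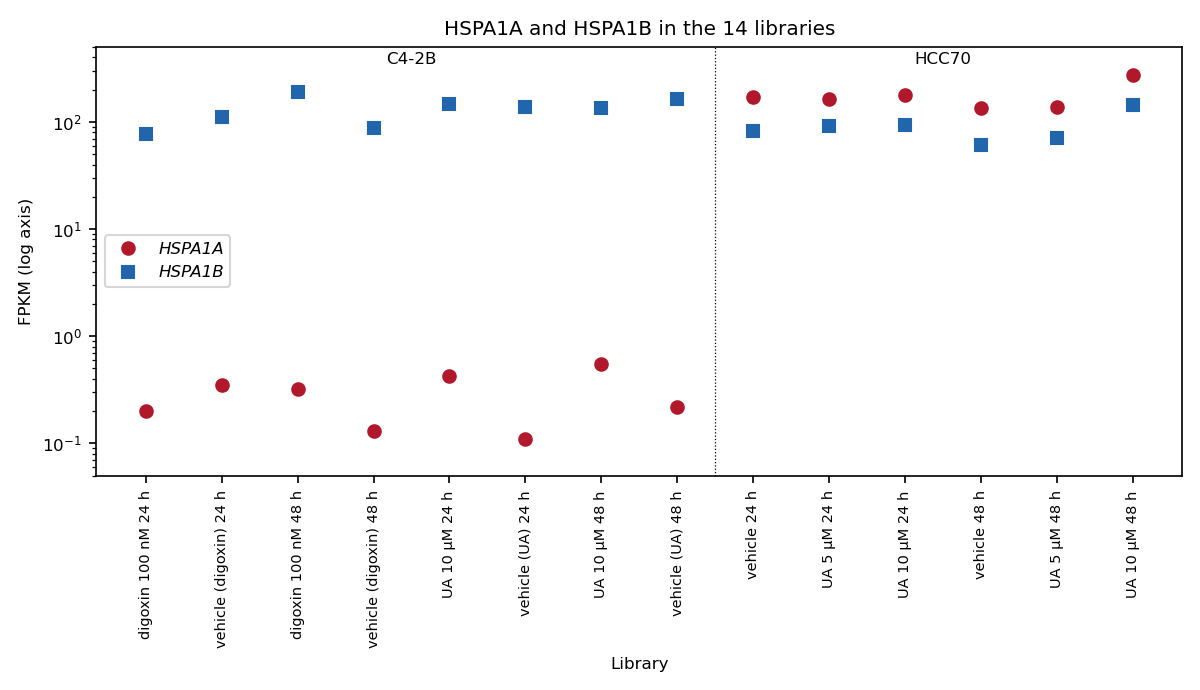
FPKM of HSPA1A (circles) and HSPA1B (squares) in each of the 14 libraries, on a log axis. HSPA1A stays below 1 FPKM in the 8 C4-2B libraries and lies above HSPA1B in the 6 HCC70 libraries.

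The highest HSPA1A value in C4-2B, 0.55 FPKM with UA at 48 h, was from the library that also had 2.18 FPKM of KRT5 and 3.89 FPKM of KRT17, keratins that reach 1485 and 2420.2 FPKM in the HCC70 vehicle at 24 h. Its vehicle had 0.24 and 0.14 FPKM of these keratins and 0.22 FPKM of HSPA1A. The other markers of HCC70, KRT14 and EGFR, were lower with UA, at 2.93 and 18.1 FPKM with UA and 4.66 and 21.5 FPKM in vehicle. In the HCC70 vehicles KRT14 was at 59.6 FPKM at 24 h and 17.7 FPKM at 48 h, and EGFR at 32.0 and 38.4 FPKM. Since C4-2B has both genes itself, they cannot show whether a trace of HCC70 RNA was present. At 24 h HSPA1A was at 0.43 FPKM with UA and 0.11 FPKM in vehicle, while KRT5 was at 0.05 FPKM with UA and 0.17 FPKM in vehicle and KRT17 at 0.13 FPKM with UA and 0.34 FPKM in vehicle. Whether RNA of the other line contributed was not tested, and HSPA1A stays out of the counts below in C4-2B because it was below 1 FPKM in every library of that line.

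Treated libraries were compared by the log2 ratio of FPKM + 0.1, for genes above 1 FPKM in either library, and a gene past 1.5-fold in either direction was counted. In bulk RNA of this kind fewer cells of some type and less of an RNA per cell cannot be told apart. The number of members past 1.5-fold was 0 to 2 in 5 comparisons and 3 in the sixth, digoxin at 48 h. It was 13 in each of the other two, digoxin at 24 h in C4-2B and 10 µM UA at 48 h in HCC70. The shares of all genes were unlike in these, with 10.9% higher and 5.99% lower in the first and 13.6% higher and 28.1% lower in the second. HSPA1A and DNAJA4 were left out in C4-2B, HSPB8 and BAG2 in HCC70 at 48 h and HSPA4L in HCC70 with 10 µM UA at 24 h, all by the filter on low values.

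**Figure D3:**
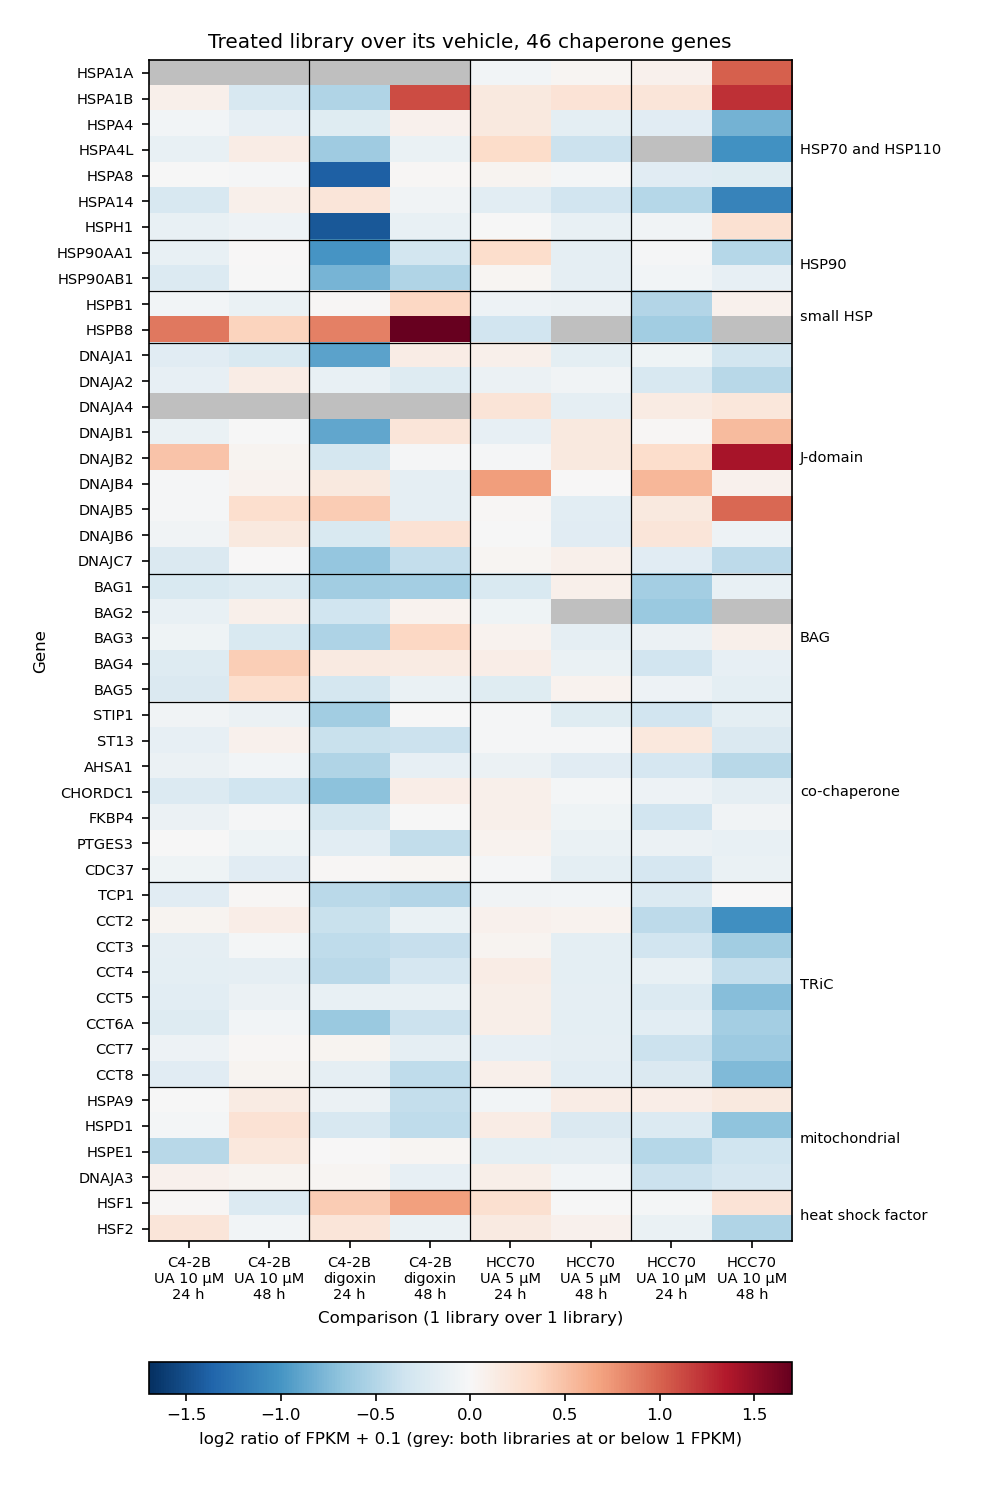
Log2 ratios of 46 members (down the page, by role) in the 8 comparisons of a treated library with its vehicle. Blue is lower, red higher and grey at or below 1 FPKM in both libraries, and the deepest blue is in the digoxin column at 24 h, in HSPA8 and HSPH1.

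Against its own vehicle, much of the HSP70 and HSP90 system was lower with digoxin in C4-2B cells at 24 h. The lowest were HSPH1, HSPA8 and HSP90AA1. Against other vehicles, given below, the share of lower members was close to that of all genes. Of 44 members compared, 12 were at least 1.5-fold lower than in the vehicle of that series and time (5.99% of all 11895 genes were) and 1 was at least 1.5-fold higher (10.9% of genes were). The median log2 ratio was -0.30 over the members and 0.12 over all genes, and 32 of 44 members were below 0, against 37.9% of all genes. Because the median of all genes was above 0, ratios centred on it gave 15 lower members and 1 higher, and ratios centred on a trimmed mean gave 17 and 1. The 12 were HSPH1, HSPA8, HSP90AA1, DNAJA1, DNAJB1, HSP90AB1, CHORDC1, DNAJC7, CCT6A, HSPA4L, STIP1 and BAG1.

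HSPA8 was at 1079.8 FPKM with digoxin at 24 h and 2821 FPKM in its vehicle. At 48 h it was at 2471 FPKM with digoxin and 2435 FPKM in vehicle. The digoxin library of 24 h was therefore the low one, below the other 7 C4-2B libraries, with a log2 ratio of -1.39 at 24 h and 0.02 at 48 h. Of all 11895 genes compared at 24 h, 92 had a lower ratio.

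HSPH1, the HSP110 exchange factor that also dissolves aggregates with HSP70, was at 69.2 FPKM with digoxin and 188 FPKM in vehicle at 24 h, a log2 ratio of -1.44. At 48 h it was at 113 FPKM with digoxin and 123 FPKM in vehicle (-0.12). Its vehicle at 24 h was the highest of all C4-2B libraries, and the UA-series vehicles were at 106 FPKM at 24 h and 97.2 FPKM at 48 h. The digoxin library of 24 h lay below each of the 4 vehicles.

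HSP90AA1 was at 558 FPKM with digoxin and 1119 FPKM in vehicle at 24 h (a log2 ratio of -1.005), and at 743 FPKM with digoxin and 923 FPKM in vehicle at 48 h (-0.31). HSP90AB1 was at 575 FPKM with digoxin and 996 FPKM in vehicle at 24 h (-0.79), and at 640.2 FPKM with digoxin and 914 FPKM in vehicle at 48 h (-0.51). Both digoxin libraries were below all 4 C4-2B vehicles for HSP90AB1, and only the 24 h one was for HSP90AA1.

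**Figure D4:**
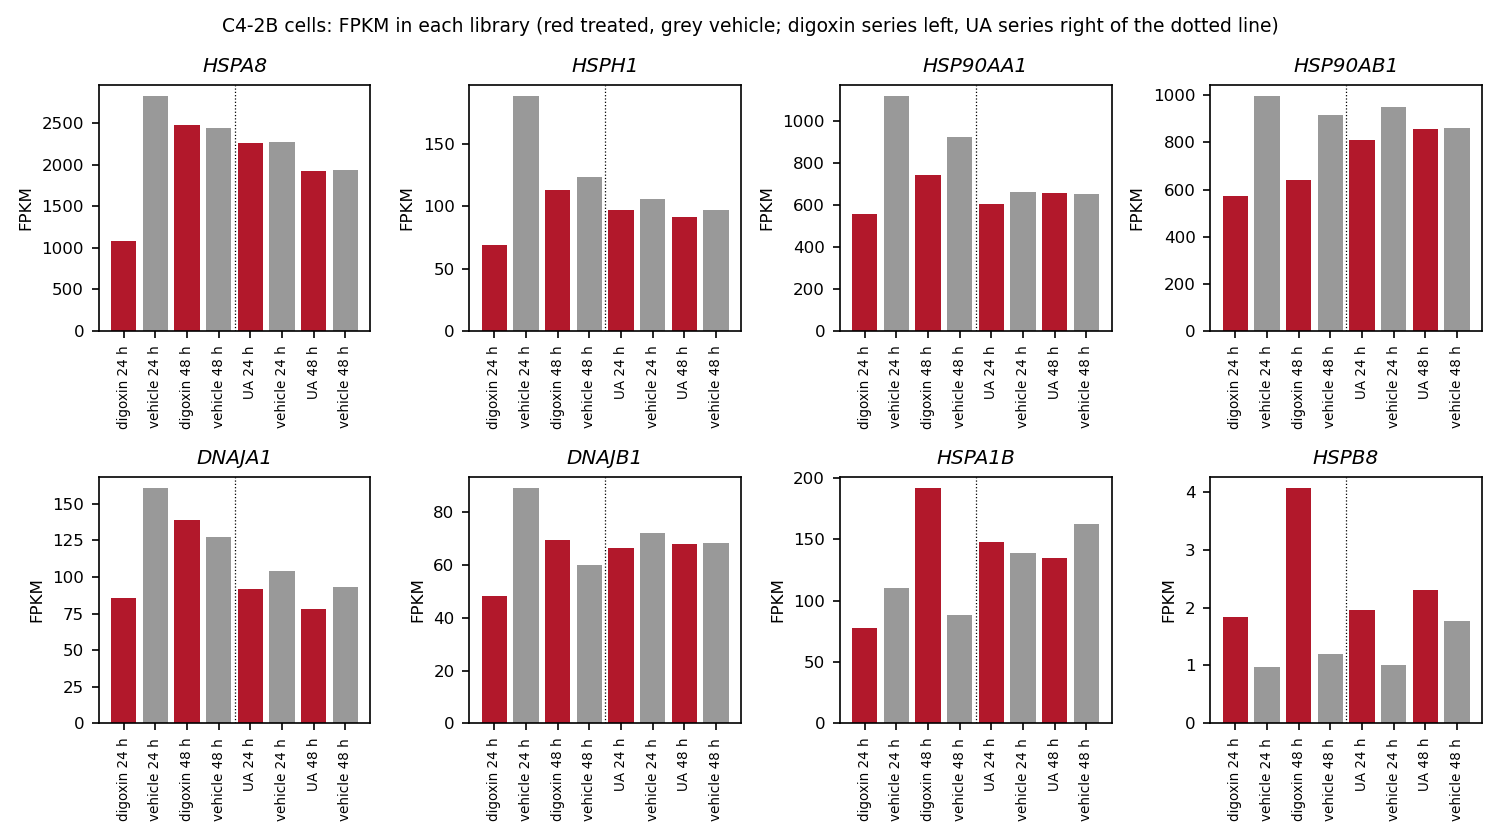
FPKM of 8 members in each C4-2B library, with treated libraries in red and vehicles in grey, the digoxin series left and the UA series right of the dotted line. The 24 h digoxin bar is the shortest for HSPA8, HSPH1, HSP90AA1, HSP90AB1, DNAJB1 and HSPA1B, and the 48 h digoxin bar is the tallest for HSPA1B and HSPB8.

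The J-domain proteins were divided. DNAJA1 was at 85.6 FPKM with digoxin and 161 FPKM in vehicle at 24 h (-0.91), and DNAJB1, the main stress-inducible HSP40, at 48.3 FPKM with digoxin and 89.0 FPKM in vehicle (-0.88). DNAJC7, which binds both HSP70 and HSP90, was at 45.2 FPKM with digoxin and 71.2 FPKM in vehicle (-0.65). In contrast DNAJB5, a J-domain protein related to DNAJB1, was at 6.05 FPKM with digoxin and 4.45 FPKM in vehicle (0.43), the highest ratio among members above 5 FPKM, followed by HSF1 (0.43) and HSF2 (0.21). DNAJA1 and DNAJB1 were not low at 48 h, with log2 ratios of 0.12 and 0.21, while DNAJC7 was at -0.41.

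Of the 7 HSP90 co-chaperones, 6 were below 0 at 24 h and 2 passed 1.5-fold, CHORDC1 (50.0 FPKM with digoxin, 81.0 FPKM in vehicle) and STIP1, the adaptor that joins HSP70 to HSP90 (177 FPKM with digoxin, 268 FPKM in vehicle). At 48 h CHORDC1 was at 69.5 FPKM with digoxin and 64.2 FPKM in vehicle, and no co-chaperone passed. The other 5, of which CDC37 brings kinases to HSP90 and ST13 holds HSP70 to it, lay between -0.51 (AHSA1) and 0.02 (CDC37) at 24 h. BAG1, an exchange factor that links HSP70 to the proteasome, was low at both times, with 23.1 FPKM with digoxin and 34.8 FPKM in vehicle at 24 h (-0.59) and 21.8 FPKM with digoxin and 32.6 FPKM in vehicle at 48 h (-0.58, just inside 1.5-fold). BAG3 was at -0.52 at 24 h and 0.36 at 48 h.

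TRiC was lower as a group at both times against its own vehicles, with less than 1.5-fold differences in most subunits. Against the UA-series vehicles its median was -0.04 at 24 h (4 of 8 below 0) and 0.12 at 48 h (3 of 8 below 0). The medians over all genes were 0.14 and 0.19 there. TRiC was thus no longer lower than vehicle as a group, but its median stayed below that of all genes. Its subunits summed to 1329 FPKM with digoxin and 1648 FPKM in vehicle at 24 h, and to 1289.8 FPKM with digoxin and 1568 FPKM in vehicle at 48 h. The median log2 ratio of its 8 subunits was -0.41 at 24 h, with 7 of 8 below 0, and -0.33 at 48 h, with 8 of 8 below 0, against 51.4% of all genes. CCT6A, at 159.7 FPKM with digoxin and 247 FPKM in vehicle at 24 h, was the 1 subunit past 1.5-fold. TCP1, the alpha subunit, was at 127 FPKM with digoxin and 179 FPKM in vehicle at 48 h (-0.49). The 4 mitochondrial chaperones had medians of -0.05 (24 h) and -0.27 (48 h), with HSPD1 lowest both times (-0.27 and -0.43).

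At 48 h of digoxin 3 of 44 members were at least 1.5-fold higher (9.27% of 12237 genes were) and 0 were at least 1.5-fold lower (11.2% of genes were). Centred on a trimmed mean, 3 were higher and 1 lower. HSPA1B was at 191 FPKM with digoxin and 88.3 FPKM in vehicle at 48 h (1.11), whereas at 24 h it was at 77.2 FPKM with digoxin and 110.4 FPKM in vehicle (-0.52). The 24 h and 48 h digoxin libraries were thus the lowest and the highest of the 8 C4-2B libraries for this gene. HSF1 was at 81.7 FPKM with digoxin and 50.3 FPKM in vehicle at 48 h (0.70) and at 72.7 FPKM with digoxin and 54.1 FPKM in vehicle at 24 h (0.43).

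HSPB8 was the only member past 1.5-fold the same way at both times of any treatment, and the share of all genes that did so was not counted. It was at 1.83 FPKM with digoxin and 0.97 FPKM in vehicle at 24 h (0.85), and at 4.06 FPKM with digoxin and 1.19 FPKM in vehicle at 48 h (1.69). These levels are low, and with a pseudocount of 0.1 FPKM the ratio slightly understates the change. At 24 h HSPB8 no longer passed with a pseudocount of 1 FPKM or against the digoxin-series vehicle of 48 h (0.58). A filter above 5 FPKM left it out at both times. HSPB1, the other small heat shock protein, was at 1764 FPKM with digoxin and 1738 FPKM in vehicle at 24 h (0.02), and at 2398 FPKM with digoxin and 1877 FPKM in vehicle at 48 h (0.35).

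How far these counts rest on the vehicle library was seen by exchanging it. The digoxin-series vehicles had higher readings of most members than the UA-series vehicles, with a median log2 ratio over the members of 0.32 at 24 h and 0.42 at 48 h, against 0.03 and 0.19 over all genes. With the vehicle of the other series, drug and series cannot be told apart. Against the UA-series vehicle of 24 h, the digoxin library of 24 h had 7 members lower (15.1% of genes were) and 4 higher (23.7% of genes were). The median was -0.03 over the members and 0.14 over all genes. Among the 7 were HSPA8 (-1.07), HSP90AB1 (-0.72), HSPH1 (-0.61) and HSPA1B (-0.84), but HSP90AA1 (-0.25) and DNAJB1 (-0.58) did not pass. Among the 4 was HSPA14, for which the digoxin series lists a further gene ID that was added to its level.

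Against the digoxin-series vehicle of 48 h, a comparison added after these values had been seen, 5 members were lower (13.6% of genes were) and 0 higher (7.57% of genes were), HSPA8, HSPH1, HSP90AA1, DNAJC7 and HSP90AB1, with a median of -0.25. HSPA8, HSPH1 and HSP90AB1 passed against each of the 3 vehicles. As a count, however, 7 of 44 lower members (15.1% of genes) and 5 of 44 (13.6% of genes) were close to all genes. Only against the vehicle of its own series and time were lower members clearly more frequent, 12 of 44 (5.99% of genes). The median over all genes was -0.02 against the digoxin-series vehicle of 48 h. At 48 h the median of -0.12 turned to 0.24 against the UA-series vehicle, where the median over all genes was 0.19. There HSF1 (90.7 FPKM in that vehicle) and HSPA1B (162 FPKM) no longer passed while HSPB8 (1.76 FPKM) did. Between the vehicles of the digoxin series, 48 h over 24 h, the median was -0.05, with HSPH1 at -0.61 and DNAJB1 at -0.57.

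Members with and without a heat shock element in the searched windows were set side by side. At 24 h of digoxin the 16 compared members with GAANNTTC or TTCNNGAA had a median log2 ratio of -0.48 and 7 of them passed 1.5-fold downward. The 22 without a match had a median of -0.19 and 4 passed. The 6 with 3 alternating units, HSPA8, HSP90AA1, HSP90AB1 and CHORDC1 among those shown above, had a median of -0.74 and 4 passed. HSPB8 also has a match and was higher. Against the UA-series vehicle of 24 h the medians no longer differed in this way, at -0.11 with a match (4 of 16 lower), -0.09 without (3 of 22) and -0.11 with 3 units (2 of 6). At 48 h against their own vehicle the medians were 0.04 with a match, -0.14 without and -0.15 with 3 units. These are counts over few genes of 1 pair of libraries, and whether the element has a part in the difference was not tested.

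With 10 µM UA the chaperone genes of C4-2B were close to their vehicles. At 24 h 1 of 44 members was at least 1.5-fold higher (3.72% of 12219 genes were) and 0 were at least 1.5-fold lower (3.36% of genes were), with a median log2 ratio of -0.11 (-0.01 over all genes). At 48 h 0 were higher (4.92% of 12416 genes were) and 0 lower (3% of genes were), with a median of -0.00077. HSPA8 was at 2259.8 FPKM with UA and 2273 FPKM in vehicle at 24 h, and at 1918 FPKM with UA and 1938 FPKM in vehicle at 48 h.

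The gene past 1.5-fold was HSPB8, at 1.96 FPKM with UA and 1.01 FPKM in vehicle at 24 h (0.89) and at 2.31 FPKM with UA and 1.76 FPKM in vehicle at 48 h (0.37). Its 2 vehicles differed by 0.74 between 48 and 24 h, which is nearly as much. DNAJB2, a J-domain protein that sorts ubiquitinated clients to the proteasome, was next at 24 h with 25.9 FPKM with UA and 18.5 FPKM in vehicle (0.48), followed by HSF2 (0.21) and HSPA1B (0.09). The lowest at 24 h were HSPE1 (-0.48), HSPA14 (-0.28) and BAG1 (-0.26).

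At 48 h of UA in C4-2B the highest members above 5 FPKM were BAG4 (0.42), DNAJB5 (0.29) and BAG5 (0.29), and the lowest CHORDC1 (-0.34), HSPA1B (-0.27) and BAG3 (-0.26). Of the genes that HSF1 is best known to induce, HSPH1 was at -0.13 at 24 h and -0.09 at 48 h, DNAJB1 at -0.12 and -0.01, HSP90AA1 at -0.13 and 0.00, and HSPB1 at -0.04 and -0.12. HSF1 itself was at 0.01 and -0.23. BAG3 was at -0.07 at 24 h. Of 44 members 4 were above 0 at both times and 19 below 0 at both.

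With 10 µM UA in HCC70 cells at 48 h, the inducible HSP70 pair and 2 J-domain genes were higher and most of TRiC was lower. Of 44 members, 4 were at least 1.5-fold higher (13.6% of 11858 genes were) and 9 at least 1.5-fold lower (28.1% of genes were). Both the higher and the lower share were thus below those of all genes. The median log2 ratio was -0.17 over the members and -0.20 over all genes. With ratios centred on the median of all genes, 5 were higher and 4 lower, and with a trimmed mean 5 and 6. Of 4 genes that mark HCC70, KRT5 (-1.36) and KRT14 (-2.78) were lower in the same comparison and KRT17 (0.37) and EGFR (0.18) were above 0, and whether a change in the cells had a part in the members' ratios was not tested.

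The 4 higher members were DNAJB2, HSPA1B, HSPA1A and DNAJB5. DNAJB2 was at 13.7 FPKM in vehicle, 15.3 FPKM at 5 µM and 36.1 FPKM at 10 µM at 48 h, so that the 10 µM library stood apart (1.40 over vehicle). DNAJB5 was at 6.17 FPKM in vehicle, 5.43 FPKM at 5 µM and 12.2 FPKM at 10 µM (0.98). For HSPA1A and HSPA1B together, a sum that depends little on how reads were divided between the copies, the level was 196 FPKM in vehicle, 209 FPKM at 5 µM and 418 FPKM at 10 µM. At 24 h the same sums were 251, 256 and 273 FPKM, all close together.

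HSPA1A was at 274 FPKM with 10 µM and 135 FPKM in vehicle at 48 h (1.01), and HSPA1B at 144 FPKM with 10 µM and 60.7 FPKM in vehicle (1.25). The other members best known as HSF1 targets did not pass. DNAJB1 was at 128 FPKM with 10 µM and 87.6 FPKM in vehicle (0.54, or 0.74 relative to all genes, which is past 1.5-fold). HSPH1 was at 51.8 FPKM with 10 µM and 43.5 FPKM in vehicle (0.25). BAG3 was at 0.09, HSPB1 at 0.07, HSPA8 at -0.20 and HSF1 at 0.23, while HSP90AA1, at 331 FPKM with 10 µM and 463 FPKM in vehicle, was lower (-0.48).

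**Figure D5:**
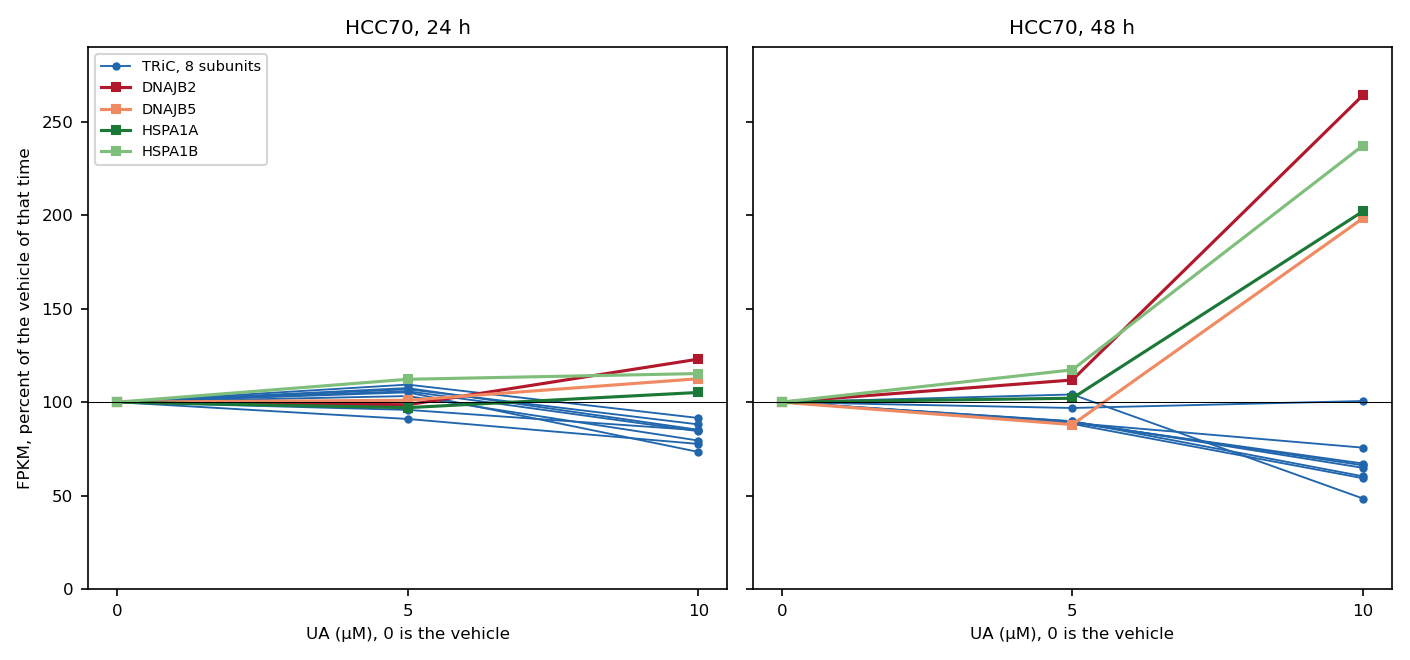
FPKM in HCC70 cells as percent of the vehicle of the same time, at 0 (vehicle), 5 and 10 µM UA, for the 8 TRiC subunits (blue) and 4 other members. At 48 h the 4 members (HSPA1A, HSPA1B, DNAJB2 and DNAJB5) lie far above their vehicle at 10 µM only, while 7 of 8 TRiC subunits lie below it.

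Summed over its 8 subunits, TRiC was at 1085 FPKM in vehicle, 1130.2 FPKM at 5 µM and 906 FPKM at 10 µM at 24 h, and at 774 FPKM in vehicle, 701 FPKM at 5 µM and 505 FPKM at 10 µM at 48 h. At 48 h with 10 µM the ring was lower in 7 of 8 subunits, with a median of -0.61 and 5 past 1.5-fold, where 61.6% of all genes were below 0. CCT2 was at 31.6 FPKM in vehicle, 32.9 FPKM at 5 µM and 15.3 FPKM at 10 µM (-1.04 over vehicle). CCT8 (-0.75), CCT5 (-0.73), CCT7 (-0.62) and CCT3 (-0.59) also passed, CCT6A (-0.57) and CCT4 (-0.40) did not, and TCP1, the remaining subunit, was at 0.01. Relative to the median of all genes CCT2 alone still passed, at -0.84.

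The TRiC subunits were also below their vehicle at 24 h of 10 µM UA, 8 of 8 (all genes 58.6%), with a median of -0.24 and CCT2 lowest at -0.45. With 5 µM the ring had 2 of 8 below 0 at 24 h (all genes 38.0%) and 7 of 8 below 0 at 48 h (all genes 58.8%), none past 1.5-fold.

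HSPA14, a ribosome-associated HSP70 relative, was at 10.5 FPKM in vehicle, 8.35 FPKM at 5 µM and 4.69 FPKM at 10 µM at 48 h (-1.14 over vehicle). At 24 h it was at 9.94 FPKM in vehicle, 8.79 FPKM at 5 µM and 7.06 FPKM at 10 µM, so it was lower at the higher dose both times. HSPA4, an HSP110 relative, was at 26.2 FPKM with 10 µM and 45.8 FPKM in vehicle (-0.80), and HSPA4L, near the filter, at 0.49 FPKM with 10 µM and 1.10 FPKM in vehicle (-1.02). The mitochondrial HSPD1 was at 35.6 FPKM with 10 µM and 57.3 FPKM in vehicle (-0.68), but HSPA9, the mitochondrial HSP70, was at 0.16. Among the HSP90 co-chaperones AHSA1, an activator of the HSP90 ATPase, was lowest at -0.47 and FKBP4, an immunophilin of steroid receptor complexes, highest at -0.06.

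Of the BAG family, no member above the filter passed 1.5-fold with 10 µM at 48 h. BAG1 was at 12.0 FPKM with 10 µM and 13.1 FPKM in vehicle (-0.13). BAG3, which couples HSP70 to autophagy and small heat shock proteins, was at 56.5 FPKM in vehicle, 51.0 FPKM at 5 µM and 60.1 FPKM at 10 µM. BAG4 (-0.14) and BAG5 (-0.17) did not pass with 10 µM either, and BAG2, a BAG protein that inhibits the ubiquitin ligase CHIP, was below the filter, at 0.79 FPKM in vehicle, 0.49 FPKM at 5 µM and 0.16 FPKM at 10 µM.

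The heat shock factors differed from each other. HSF1 was at 61.2 FPKM in vehicle, 60.8 FPKM at 5 µM and 71.9 FPKM at 10 µM at 48 h. HSF2 was low in HCC70, at 2.09 FPKM in vehicle, 2.20 FPKM at 5 µM and 1.43 FPKM at 10 µM (-0.52 with 10 µM). In C4-2B HSF2 was at 7.57 FPKM with digoxin and 6.53 FPKM in vehicle at 24 h, and at 7.07 FPKM with digoxin and 7.68 FPKM in vehicle at 48 h, and in no comparison with its own vehicle did it pass 1.5-fold.

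The HSP90 genes and their co-chaperones were lower than vehicle in HCC70 at 48 h at both doses, though within 1.5-fold. At 10 µM this did not set them apart, since HSP90AB1 (-0.15) and the co-chaperone median lay above the median of all genes (-0.20). HSP90AB1 was at 335 FPKM in vehicle, 301 FPKM at 5 µM and 303 FPKM at 10 µM, and HSP90AA1 at 463 FPKM in vehicle, 417 FPKM at 5 µM and 331 FPKM at 10 µM. The 7 co-chaperones had medians of -0.12 with 5 µM and -0.16 with 10 µM, and all 7 were below 0 at either dose, against 58.8% of all genes at 5 µM and 61.6% at 10 µM. At 24 h their medians were -0.02 with 5 µM and -0.28 with 10 µM.

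The J-domain genes other than DNAJB2 and DNAJB5 did not pass at 48 h with 10 µM. DNAJA4, above 1 FPKM in HCC70 only, was at 6.71 FPKM in vehicle, 6.04 FPKM at 5 µM and 7.67 FPKM at 10 µM. Of the rest DNAJA2 was lowest (-0.47), followed by DNAJC7 (-0.45) and DNAJA1 (-0.32), while DNAJB6 (-0.09) and DNAJB4 (0.08) were close to vehicle.

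The earlier and lower exposures gave less. At 10 µM for 24 h 0 of 45 members were at least 1.5-fold higher (6.26% of 11814 genes were) and 2 at least 1.5-fold lower (7.05% of genes were), BAG2 (0.63 FPKM with 10 µM, 1.03 FPKM in vehicle) and HSPB8 (1.29 FPKM with 10 µM, 2.00 FPKM in vehicle), both near the filter. Centred on the median of all genes or a trimmed mean, 1 was higher and 0 lower, and the 1 was DNAJB4, a J-domain protein. The median was -0.19 over members and -0.07 over all genes. BAG1 was at 16.0 FPKM with 10 µM and 23.8 FPKM in vehicle (-0.57), and HSPB1 at 2079 FPKM with 10 µM and 2944 FPKM in vehicle (-0.50). HSPA14 was at -0.49. The highest members above 5 FPKM were DNAJB2 (0.30), HSPA1B (0.21) and DNAJB6 (0.20). HSPA1A (0.07), HSPA8 (-0.19), HSPH1 (-0.05), HSP90AA1 (-0.02), DNAJB1 (0.01), BAG3 (-0.11) and HSF1 (-0.04) did not pass.

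At 5 µM for 24 h 1 of 46 members, DNAJB4, was at least 1.5-fold higher (3.79% of 11809 genes were) and 0 were at least 1.5-fold lower (2.17% of genes were). DNAJB4 was at 2.51 FPKM in vehicle, 4.16 FPKM at 5 µM and 3.76 FPKM at 10 µM. At 5 µM for 48 h 0 of 44 were higher (3.82% of 11768 genes were) and 0 lower (4.82% of genes were). The medians at 5 µM were 0.04 at 24 h and -0.12 at 48 h, against 0.06 and -0.05 over all genes. Highest above 5 FPKM were HSP90AA1 (0.29), HSF1 (0.27) and DNAJA4 (0.22) at 24 h and HSPA1B (0.23), DNAJB1 (0.17) and DNAJB2 (0.16) at 48 h. Lowest were BAG1 (-0.26), BAG5 (-0.21) and HSPA14 (-0.18) at 24 h and HSPA14 (-0.32), HSPD1 (-0.24) and STIP1 (-0.21) at 48 h. The canonical heat shock genes stayed within these limits, with HSPA1A at -0.04 and 0.03, HSPA8 at 0.05 and -0.03, HSPH1 at -0.01 and -0.13, HSPB1 at -0.08 and -0.10, and BAG3 at 0.06 and -0.15 at 24 and 48 h. At 24 h HSPA1B was at 0.17 and DNAJB1 at -0.13, and at 48 h HSP90AA1 was at -0.15 and HSF1 at -0.01.

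The doses were also set directly against each other. At 48 h 10 µM over 5 µM had 4 members at least 1.5-fold higher (11.2% of 11775 genes were), DNAJB2 (1.23), DNAJB5 (1.16), HSPA1B (1.02) and HSPA1A (0.98). It had 4 at least 1.5-fold lower (21.6% of genes were), CCT2 (-1.10), HSPA14 (-0.82), HSPA4 (-0.63) and HSF2 (-0.59), a developmental relative of HSF1. Between 5 µM and vehicle none of these 8 passed 1.5-fold.

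The HCC70 vehicles differed between times by as much as most treated libraries did from their vehicle. The ratio of vehicle at 48 h to vehicle at 24 h had a median of -0.33 over 46 members, against -0.11 over all genes. It had 8 members at least 1.5-fold lower (9.33% of 11810 genes were) and 1, DNAJB5, at least 1.5-fold higher (5.05% of genes were). HSPB1 was at 1553 FPKM at 48 h and 2944 FPKM at 24 h, and HSPA8 at 664 FPKM at 48 h and 1003 FPKM at 24 h. All 8 TRiC subunits were lower at 48 h (all genes 61.7%), with a median of -0.36.

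UA at 10 µM was given to both lines, but the counts come from different cells and series and the difference between lines was not tested. HSPB8 differed in sign at 24 h, at -0.60 in HCC70 and 0.89 in C4-2B. DNAJB2 was above its vehicle in both lines at both times, at 0.30 (24 h) and 1.40 (48 h) in HCC70 and 0.48 (24 h) and 0.05 (48 h) in C4-2B. HSPA1B at 48 h was at 1.25 in HCC70 and -0.27 in C4-2B, and CCT2 was at -1.04 in HCC70 and 0.11 in C4-2B.

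Genes that work beside the members were counted from lists. Of 24 other genes tied to heat shock or to chaperone work, 2 of 22 compared were at least 1.5-fold higher (10.9% of all genes) and 3 lower (5.99% of all genes) with digoxin at 24 h, with a median of 0.03. CACYBP, which binds the ubiquitin ligase adaptor SKP1, was at 111 FPKM with digoxin and 191 FPKM in vehicle, and SUGT1, an HSP90 co-chaperone, at 13.0 FPKM with digoxin and 20.7 FPKM in vehicle. With 10 µM UA at 48 h in HCC70, 4 of 24 were higher (13.6% of all genes) and 8 lower (28.1% of all genes), with a median of -0.31, shares near those of all genes. SQSTM1, the autophagy receptor p62, was at least 1.5-fold higher in every comparison but that of 5 µM UA at 24 h, also where few or no members passed. It was at 282 FPKM with UA and 120.5 FPKM in vehicle in C4-2B at 24 h, and at 124 FPKM in vehicle, 157 FPKM at 5 µM and 448 FPKM at 10 µM in HCC70 at 24 h. With digoxin at 24 h it was at 113 FPKM, against 71.4 FPKM in its own vehicle. It did not pass there against the digoxin-series vehicle of 48 h (97.1 FPKM) or the UA-series vehicle of 24 h (120.5 FPKM).

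The 6 prefoldin subunits, which deliver actin and tubulin to TRiC, did not follow it with digoxin at 24 h, with 6 of 6 above 0. Their median was 0.29, against -0.41 for TRiC and 0.12 for all genes. With 10 µM UA at 48 h in HCC70 their median was -0.34 (-0.20 over all genes). VBP1 and PFDN4 were at least 1.5-fold lower, where 28.1% of all genes were. The 10 chaperones of the endoplasmic reticulum had medians of -0.33 (24 h) and -0.35 (48 h) with digoxin, and all 10 were below 0 at 48 h, against 51.4% of all genes. Against the UA-series vehicle of 48 h their median was 0.24 with 4 of 10 below 0, near all genes (0.19 and 38.4%). Against the UA-series vehicle of 24 h, the digoxin library of 24 h had a median of -0.21 over them with 7 of 10 below 0. All genes had 0.14 and 41.6% there. With 10 µM UA at 48 h in HCC70 their median was 0.18, with 1 of 10 below 0 (PDIA4) and 3 at least 1.5-fold higher, DNAJB9, HSPA5 and HYOU1, where 13.6% of all genes were. HSP90B1 and CALR were close to their vehicle, at 0.02 and 0.02. HSPA5, the HSP70 of that compartment, was there at 207 FPKM with 10 µM and 112 FPKM in vehicle.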

How the data were processed

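The authors prepared libraries from 1 µg of total RNA, mapped the reads to hg38 (BWA, Bowtie) and computed FPKM in Cufflinks (versions not given in the sources used here). The deposited values are FPKM with 2 decimals. No unit is named in the files of the digoxin series, whose values are read as FPKM, the unit of the methods. Their gene list is shorter (26237 IDs against 35069). Entries of a symbol were summed, which added a further ID to HSPA14 in the digoxin series, and repeated rows were counted once. Read totals are not given. The spacing of low values put the depth at roughly 1.31e+07 to 1.51e+07 fragments, but 26.5 to 34.5% of them fell within 0.1 of a whole fragment, where even spread would give 20%. Whole reads were not recovered, no counting interval is given, and the precision of low values is unknown.

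Log2 ratios of FPKM + 0.1 were taken for genes above 1 FPKM in either library, and calls were made at 1.5-fold, in 8 comparisons. With 1 library per condition no single comparison was tested. An alternative was a limma fit (3.58.1, R 4.3.3) over 14 libraries in which each treatment effect was averaged over both times, with a term for each line, series and time (4 residual degrees of freedom, Benjamini-Hochberg adjustment). The members, lists and rules were chosen with earlier results of these data known. Named members were 9 canonical ones (HSPA1A, HSPA1B, HSPA8, HSPH1, HSPB1, HSP90AA1, DNAJB1, BAG3 and HSF1), all past 2-fold, and the 3 highest and 3 lowest above 5 FPKM in each comparison, and others stand as examples of a role. Alternatives were pseudocounts of 1 and 0.01 FPKM, no filter or one above 5 FPKM, centring on the median or a 30% trimmed mean, the highest entry of a symbol, members without HSPA1A and HSPA1B or the mitochondrial ones, a 2-fold threshold, and other vehicles. On simulated data with changes set in advance, the ratio and limma steps were tested first. No pair of libraries shared over 0.374% of its values. Sequences are from RefSeq (GRCh38.p14), positions from GENCODE on hg38. Python 3.11.15 (pandas 2.3.3, numpy 2.4.6, scipy 1.17.1) was used, with matplotlib 3.10.9 for plots.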

Additional observations from a re-analysis of the deposited data

Results flagged for a closer look

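HSPB8 with 10 µM UA at 24 h is singled out because it moved past 1.5-fold in opposite directions in the lines. It was at 1.29 FPKM with UA and 2.00 FPKM in vehicle in HCC70, and at 1.96 FPKM with UA and 1.01 FPKM in vehicle in C4-2B. The log2 ratio in HCC70 minus that in C4-2B was -1.49. The difference was not tested, since each value is a single library, and all 4 levels are at or below 2 FPKM. The HCC70 ratio, -0.60, is just past 1.5-fold and no longer passes with either centring, a pseudocount of 1 FPKM or a filter above 5 FPKM. The C4-2B ratio, 0.89, is also lost with that pseudocount or that filter. The C4-2B vehicles of the UA series differed by 0.74 between 48 and 24 h for this gene.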

How the results depend on the processing

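The median ratio over members moved by less than 0.1 in 69 of 77 recalculations, and the count past 1.5-fold stayed within 1.5 times in 65 of 85. The count joins both directions. Digoxin at 24 h against the UA-series vehicle thus counts as kept, though 1 higher and 12 lower became 4 and 7. So does 10 µM UA at 48 h in HCC70 centred on the median, where 4 and 9 became 5 and 4. Taking the highest entry could alter only HSPA14 in the digoxin series, so elsewhere it could move nothing. Against the vehicle of the other series the median became -0.41 (24 h) and -0.43 (48 h) with UA in C4-2B. There 20 of 44 members passed 1.5-fold at each time, against 1 and 0 with their own vehicle. Many other genes passed too. At 24 h 4 members were higher and 16 lower, where 2109 of 11942 genes were higher and 2156 lower. At 48 h 5 were higher and 15 lower, where 1705 of 12225 genes were higher and 2978 lower. For digoxin the median became -0.035 at 24 h (0.14 over all genes). At 48 h it turned to 0.24 (0.19 over all genes), where 13 of 44 passed in place of 3. Of these 11 were higher and 2 lower, where 3058 of 12100 genes were higher and 1707 lower. Against the digoxin vehicle of 48 h, an alternative chosen after seeing the data, 5 passed at 24 h in place of 13. Centring shifted digoxin at 24 h to -0.42 (median of all genes) and -0.44 (trimmed mean), and 10 µM UA at 48 h in HCC70 turned to 0.037 (median of all genes) and became -0.0500 (trimmed mean). With either centring 1 member passed in place of 2 with 10 µM UA at 24 h, and with the trimmed mean digoxin at 48 h had 3 higher and 1 lower.

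The smallest counts rested on low values. A pseudocount of 1 FPKM, or a filter above 5 FPKM, gave 0 for UA in C4-2B at 24 h and for 5 and 10 µM UA in HCC70 at 24 h. Either also left no higher member with digoxin at 24 h, where HSPB8 had passed. Without a filter 2 passed for UA in C4-2B at either time and for 5 µM UA at 48 h. At 2-fold, 3 remained for digoxin at 24 h and 6 for 10 µM UA at 48 h, with 0 for UA in C4-2B and both HCC70 doses at 24 h, and 0 passed at both times of digoxin. In the limma fit over both times, which treats times as replicates, 5 of 46 members had an adjusted p below 0.05 with 10 µM UA (1085 of 13755 genes), all lower, namely HSPA14, BAG2, CCT2, CCT3 and CCT7, while 0 had passed 1.5-fold at both times. For digoxin the 1 member so called was HSP90AB1, not HSPB8 (194 of 13755 genes). Both shares are close to those of all genes. No paired analysis was possible because each condition has a single library, so no replicate numbers could pair. The limma fit matches treated and vehicle by line, series and time only. Members near or below 1 FPKM (HSPB8, HSPA4L and BAG2, and HSPA1A and DNAJA4 in C4-2B) have an unknown precision.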
